A study of Homo sapiens with 9 samples.

Results

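The nuclear-encoded respiratory chain subunits are the 87 genes, of 26625 in the deposited tables, whose coding transcripts carry a RefSeq symbol of the NDUFA, NDUFB, NDUFC, NDUFS or NDUFV series, SDHA to SDHD, the UQCR series, CYC1, COX4 to COX8, or the ATP5 series. They comprise 36 genes of complex I, 4 of complex II, 10 of complex III, 17 of complex IV and 20 of complex V. Membership came from names alone and used no measured value. The rule also takes ATP5MF-PTCD1, a readthrough transcript that overlaps ATP5MF, and UQCRHL, an intronless copy of UQCRH. NDUFA4 is listed under a new symbol in RefSeq and so fell outside the rule.

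The study compared adaptor-carrying oligo(dT) primers for reverse transcription in a ligation-based sequencing protocol called CLT-seq. All libraries started from total RNA of cultured cells: HEK293T, derived from embryonic kidney and transformed in culture, and A549, from a carcinoma of the lung; both are human. Unanchored primers ended in a run of 12 (T12), 18 (T18) or 30 (T30) thymines. Anchored primers had 18 thymines followed by a base other than thymine (T18V), to which T18VN adds 1 arbitrary base and T18VNN adds 2. Of 9 libraries, 7 with gene counts were analysed: HEK293T with each of the 6 primers (for T12, replicate 1) and A549 with T12 (replicate 2). Each combination of line and primer therefore had 1 library, and the SD given for a primer class is the spread over its 3 primers, not over cultures. The primer, the library and any batch cannot be told apart.

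The respiratory chain of the inner mitochondrial membrane passes electrons from NADH (complex I) and succinate (complex II) through ubiquinone, complex III and cytochrome c to oxygen (complex IV). Complexes I, III and IV pump protons, and complex V, the ATP synthase, uses the gradient to make ATP. Complex II is encoded entirely in the nucleus, whereas the other complexes combine nuclear subunits with a few encoded in mitochondrial DNA. The tables held 0 entries on the mitochondrial chromosome, so the mitochondrially encoded partners are not analysed here.

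An oligo(dT) primer anneals to the poly(A) tail, and an anchored primer is placed at the junction of transcript and tail. The last 30 bases before the tail are shown for the members that stood farthest apart between primer classes or primers and whose GENCODE transcript had the deposited length within 50 nt. Capitals mark the polyadenylation signal (AATAAA or ATTAAA).
ATP5F1B: ttaaggtttccAATAAAatgtacacccctc
UQCR11: aaaaAATAAAaatgaacaggtataaaaaga
COX8A: cttgtaacAATAAAatctatttaaacttta
ATP5MC1: agctttaccATTAAAcacaacgtttctcta
All 4 ends held a signal of this kind. In the annotated transcripts the last base that is not A was C in ATP5F1B, G in UQCR11 and T in both COX8A and ATP5MC1. A V base can pair with any base other than A, so this pairing is not particular to these 4 transcripts.

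Promoters of respiratory genes are known for sites of NRF1 and of ETS-family factors, and short motifs of these kinds were searched on both strands from 250 bases before to 50 bases after the RefSeq start (GRCh38.p14). Of the 80 members with enough reads to be tested, 65 (81.2%) had a promoter in the RefSeq table. The NRF1-type motif CGCATGCG was found in 10 of them (15.4%), against 4.31% of 8455 promoters of tested coding genes. The ETS-type motif CCGGAAG was found in 20 (30.8%, against 20.5%). The YY1-type motif AAGATGGCG was found in 8 (12.3%, against 4.58%). The letters of no motif contain those of another, and a match describes the letters only, since no binding was measured. The promoter of ATP5PF, a peripheral stalk subunit of complex V, held all 3 kinds and is shown with them in capitals, in the order NRF1, YY1, ETS. It lies on the minus strand at chr21:25735005-25735304, and the gene overlaps GABPA, which encodes an ETS-family factor.
ATP5PF: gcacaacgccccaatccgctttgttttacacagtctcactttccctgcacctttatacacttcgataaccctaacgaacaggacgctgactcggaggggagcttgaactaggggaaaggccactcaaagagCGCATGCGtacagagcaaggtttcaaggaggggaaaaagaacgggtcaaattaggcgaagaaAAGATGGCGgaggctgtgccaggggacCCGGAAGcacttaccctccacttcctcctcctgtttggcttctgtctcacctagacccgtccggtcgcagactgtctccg
The promoter of SDHB, the iron-sulfur subunit of complex II (chr1:17053983-17054282, minus strand), held an ETS-type and then a YY1-type match, the latter just after the start.
SDHB: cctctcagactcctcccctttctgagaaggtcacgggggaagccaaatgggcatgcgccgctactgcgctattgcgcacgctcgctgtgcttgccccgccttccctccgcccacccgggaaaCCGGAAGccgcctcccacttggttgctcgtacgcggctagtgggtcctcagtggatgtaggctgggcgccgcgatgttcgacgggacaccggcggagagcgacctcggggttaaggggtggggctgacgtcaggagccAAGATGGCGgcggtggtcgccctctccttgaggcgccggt
Members with and without a motif are set side by side here with no test. The median log2 ratio of A549 to HEK293T (described further on) was -0.25 for the 9 compared members with the NRF1-type motif and -0.76 for the 51 without it. For the ETS-type motif it was -0.27 (16 members) and -0.58 (44 members). For the YY1-type motif it was -0.30 (7 members) and -0.52 (53 members).

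Depth and sample identity bear on all of these values. The number of reads assigned to genes was lowest in A549 (1498214) and highest with T18 (5200701). In HEK293T, reads on genes made up 17.3%, 20.3% and 11.7% of the library total with T12, T18 and T30. With T18V, T18VN and T18VNN the share was 37.5%, 28.1% and 27.7%, above all unanchored primers, and in A549 it was 13.5%. A floor of 3 reads corresponded to 0.577 CPM (reads per 1000000 gene reads) in the deepest library and 2.00 CPM in A549. All 14 A549 marker genes were above the HEK293T range in the A549 library (summed 18630 CPM, against 11.4 to 28.7 in HEK293T), and 8 of 10 HEK293T markers were below it (167 CPM, against 2843 to 3770), with IGF2BP3 above it (82.1 CPM, against 12.9 to 47.3). STMN2, among the HEK293T markers, was under 3 reads in every library. These marker lists were chosen with earlier results of these data known, so their separation is no independent check of identity. Of 10 markers of blood, endothelial, stromal and other lineages, 7 (PTPRC, CD3E, PECAM1, CDH5, DCN, ALB and HBB) were under 3 reads in every library, and the summed level was 9.19 to 29.5 CPM in HEK293T and 40.7 CPM in A549. COL1A1 had 15 to 105 reads per HEK293T library and 57 in A549 (38.05 CPM, above the HEK293T range). CD79A had at most 4 reads, in A549, and ACTA1 at most 15, in HEK293T T12. In bulk RNA, fewer cells expressing a gene and less of its RNA per cell cannot be told apart.

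Levels were compared between genes on the FPKM scale, which divides by transcript length. Within HEK293T, the median level of the members was 22.1 FPKM, against 1.70 FPKM over all tested genes. On CPM, which does not divide by length, the medians were closer, at 96.5 and 21.8 CPM. NDUFA1, a single-span accessory subunit of complex I, was highest with 1038 ± 407 FPKM (SD over the 6 primers). It had 1017, 944.5 and 664.6 FPKM with T12, T18 and T30, and 1797, 1088 and 719.3 FPKM with T18V, T18VN and T18VNN. It held the most member reads in 5 of the 6 HEK293T libraries and in A549, between 10.8% and 19.4% of them. With T18VNN, ATP5F1B held the most (7.90%). NDUFA1 lies on chromosome X (119005734 to 119010629, plus strand, hg19) and overlaps RNF113A in the table, so reads of the pair may be shared. The 10 leading members of each library together took 49.9% to 57.8% of the member reads.

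Among the 36 complex I genes, the 7 nuclear core subunits, which carry the flavin and the iron-sulfur clusters, had a median level of 5.79 FPKM. The 29 accessory subunits had a median of 15.8 FPKM. NDUFS1, the largest core subunit, was the lowest complex I gene with 0.780 ± 0.758 FPKM (SD, n = 6). NDUFB1, an accessory subunit, was second to NDUFA1 in the complex with 326.5 ± 213 FPKM.

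Complex II ranged from 0.571 ± 0.300 FPKM for the membrane anchor SDHD to 41.6 ± 28.5 FPKM for SDHC, the other membrane subunit. The catalytic flavoprotein SDHA had 6.67 ± 3.88 FPKM and SDHB 6.05 ± 3.41 FPKM, a difference that was not tested. SDHD rested on 8 to 26 reads per HEK293T library. SDHA has near-identical pseudogene copies in the table, of which SDHAP3 held 169 reads with T12 and 9 to 46 with the other HEK293T primers, so SDHA counts are uncertain.

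In complex III, UQCR10 (200.2 ± 89.8 FPKM) and UQCRH (189 ± 116 FPKM), both small subunits, were the highest. The difference between them was not tested. CYC1, the catalytic cytochrome c1, was the lowest with 2.39 ± 1.84 FPKM. The 5 small subunits had a median of 37.2 FPKM, and the 4 catalytic and core proteins (CYC1, UQCRFS1, UQCRC1, UQCRC2) 7.52 FPKM. UQCRB shares sequence with UQCRBP1, which held 48 to 284 reads per HEK293T library.

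Complex IV was led by COX7C (454.6 ± 217 FPKM), a small structural subunit, and COX5A (245.4 ± 139 FPKM), and COX5B was the lowest tested gene with 4.91 ± 3.74 FPKM. Its paralogs of restricted tissue expression had few or no reads. COX4I2 (lung and hypoxia), COX6A2 and COX7A1 (heart and muscle) and COX7B2 were under 3 reads in every library, A549 included. COX6B2 and COX8C were at most 2.23 CPM and 0.893 CPM in HEK293T, and COX6B2 was at 3.34 CPM in A549. Their ubiquitous counterparts COX4I1, COX6A1, COX7A2, COX7B, COX6B1 and COX8A had mean levels of 35.5, 103.7, 48.2, 30.2, 43.5 and 49.5 FPKM in HEK293T. COX7A2L, a related protein of the respiratory supercomplex, had 10.0 ± 6.45 FPKM.

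In complex V, ATP5MJ (170.9 ± 99.1 FPKM), a small membrane subunit, and ATP5F1B (121 ± 103 FPKM), the catalytic beta subunit, were highest. The other subunits of the catalytic F1 head included ATP5F1A, the alpha subunit, at 12.3 ± 8.29 FPKM. The lowest tested complex V entry was the readthrough ATP5MF-PTCD1 with 7.82 ± 7.83 FPKM. ATP5IF1, the inhibitor protein of the synthase, had 32.8 ± 20.3 FPKM. ATP5MGL, a copy of ATP5MG, did not have enough reads to be tested.

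**Figure D1:**
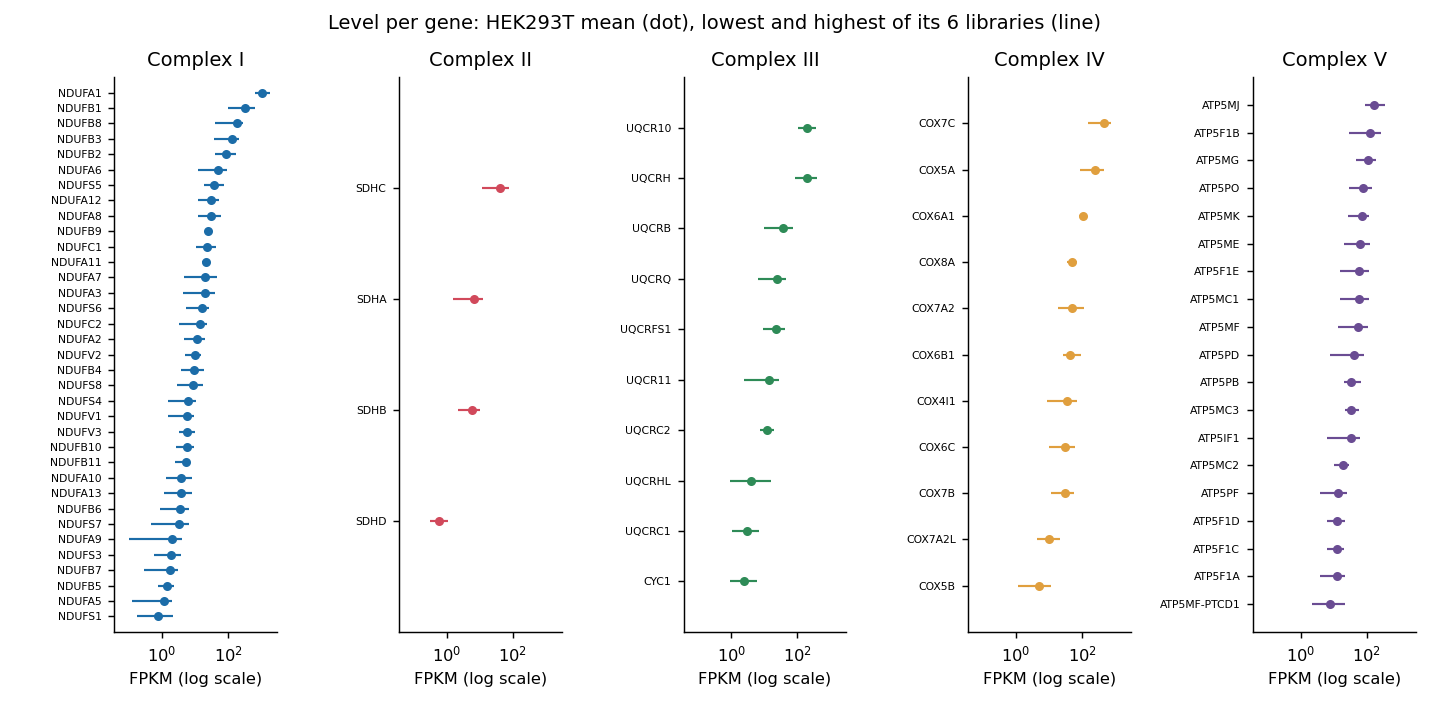
Mean FPKM of the tested members reported here over the 6 HEK293T libraries (dot) with the lowest and highest library (line; zero values not drawn), on a log axis, by complex. Levels within complex I spanned 1331-fold from NDUFS1 to NDUFA1 and within complex V 21.9-fold; FPKM divides by the library total, so part of each line follows the share of reads on genes.

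Members had shorter transcripts than most genes, with a median of 940.5 nt against 3228 nt over the 10887 genes tested. In all, 55.0% of members were under 1000 nt, against 5.92% of genes. Their CPM varied by a median of 2.98-fold between the highest and lowest of the 6 primers, against 3.54-fold over all tested genes. The median level was 96.5 CPM for members and 21.8 CPM for all tested genes, and the part of level in this range was not tested.

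The comparison of anchored with unanchored primers asked how the measured levels differ between these libraries. ATP5F1B was the only member whose level changed past the threshold, and it was higher with every anchored primer. Its level was 352 CPM with T12, 404 with T18 and 453.5 with T30, and 1338 with T18V, 908 with T18VN and 1394 with T18VNN. The 2 classes did not overlap, and the mean was 403 ± 50.7 CPM (SD, n = 3 primers) without and 1213 ± 266 CPM with an anchor. The difference on the log2 scale was 1.41 with an SE of 0.29 (adjusted p = 0.0419, edgeR quasi-likelihood test with Benjamini-Hochberg adjustment). This call was lost in 6 of 11 alternatives, in which the adjusted p ran from 0.00105 to 0.174 and the log2 fold change from 1.29 to 1.59. The alternatives that ended it were reads summed over entries and leaving out any of T12, T18, T30, T18V or T18VNN. The gene lies on chromosome 12 (57031959 to 57039852, minus strand, hg19) and holds 2 small nucleolar RNA genes, SNORD59A and SNORD59B, in its span.

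Thus 1 of 80 tested members (1.25%) passed an adjusted p of 0.05, against 1.35% of the 10887 genes tested, a share near the background. DESeq2 called 3 of the 72 members to which it gave an adjusted p, which added UQCR11 and COX8A, and 7.74% of all genes with an adjusted p. At an unadjusted p under 0.05 there were 17 members (21.2%), 12 higher and 5 lower with anchors, against 15.6% of all genes. The median log2 fold change was 0.20 over members and 0.00 over all genes.

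UQCR11, a small subunit of complex III, had 21.7, 43.7 and 28.0 CPM with T12, T18 and T30, and 101, 101 and 96.2 CPM with T18V, T18VN and T18VNN. All anchored libraries lay above all unanchored ones, with a log2 fold change of 1.49 (SE 0.36) and an edgeR adjusted p of 0.0653. COX8A, the smallest complex IV subunit, was set the other way. It had 204, 139 and 164 CPM with the unanchored primers and 47.7, 110.5 and 67.8 CPM with T18V, T18VN and T18VNN. Its log2 fold change was -1.33 with an SE of 0.36 (edgeR adjusted p = 0.1). UQCRHL had the largest estimate, 1.99, with an SE of 1.03 and at most 7.14 CPM outside T18V; without T18V the estimate was 1.00. NDUFA11, an accessory membrane subunit of complex I, had an estimate of -1.02 (SE 0.37, edgeR adjusted p = 0.211).

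**Figure D2:**
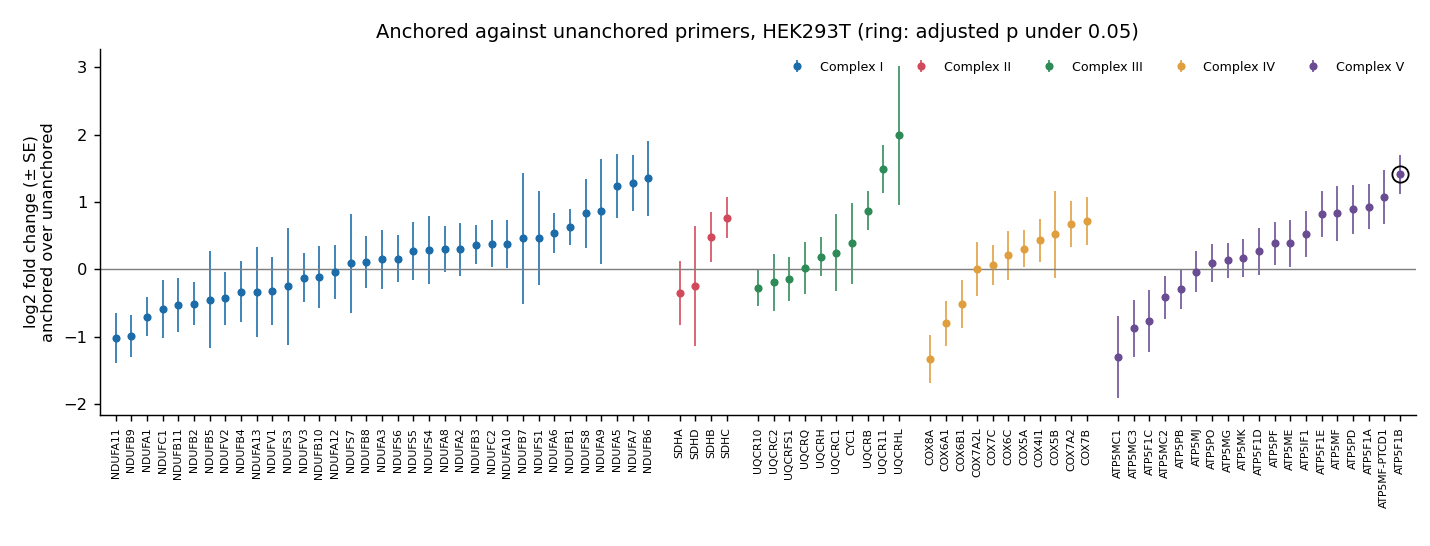
The log2 fold change of anchored over unanchored primers with its SE for the tested members reported here, ordered within each complex; the ring marks an adjusted p under 0.05. ATP5F1B carries the ring, at 1.41, and complex V reaches down to -1.30 for ATP5MC1.

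The classes were also compared by whether their libraries overlapped. All 3 anchored libraries lay above all 3 unanchored ones for 23 of 80 members (28.8%), against 16.8% of all genes. The reverse held for 2 members (2.50%), COX8A and NDUFB9, against 6.8% of all genes. The higher set held 8 genes of complex I, 2 of complex II (SDHB and SDHC), 2 of complex III (UQCR11 and UQCRB), 3 of complex IV and 8 of complex V, the readthrough among them. It included 3 of the 5 F1 genes (ATP5F1A, ATP5F1B, ATP5F1E), 2 of the 4 peripheral stalk genes and 0 of the 7 core genes of complex I. The split followed the scaling: TMM-scaled CPM gave 16 higher and 6 lower members (1369 and 1068 of all genes), and library totals gave 50 and 0 (5086 and 100 of all genes). For NDUFS6, an accessory subunit, the anchored levels were 38.4, 38.4 and 39.8 CPM against 33.7, 33.7 and 25.3 CPM, a small shift for such a separation; this gene was picked after its values were seen.

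The 3 genes ATP5MC1, ATP5MC2 and ATP5MC3 encode the same mature c subunit of the rotor ring with different import sequences. Together they took 1235, 952 and 1034 CPM with T12, T18 and T30, and 388, 1098 and 522 CPM with T18V, T18VN and T18VNN. ATP5MC1 had 445, 185 and 85.3 CPM with the unanchored primers and 37.7, 185.5 and 98.7 CPM with the anchored ones. The T12 library was the highest and T18V the lowest, an 11.8-fold range. The estimate for ATP5MC1 was -1.30 (SE 0.61, edgeR adjusted p = 0.331), and it was -0.53 without T12 and -1.96 without T18VN. ATP5MC2 was steadier, between 118 and 223 CPM. ATP5MC3 had 567, 587 and 768 CPM unanchored and 196, 691 and 305 CPM anchored, so T18VN stood with the unanchored primers. By FPKM, ATP5MC1 made up 71.3% of the 3 genes with T12, 29.3% with T30 and 30.6% with T18V, and the order of the paralogs thus changed with the primer. These percentages rest on transcript lengths of 647, 2117 and 3293 nt for ATP5MC1, ATP5MC2 and ATP5MC3. On CPM, which does not divide by length, ATP5MC3 was the highest of the 3 with every primer. Over these 3 genes the median log2 fold change was -0.87, and 0 of them had the classes apart. Over the 5 F1 genes it was 0.82, from -0.76 for ATP5F1C to 1.41 for ATP5F1B, and over all genes 0.00.

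**Figure D3:**
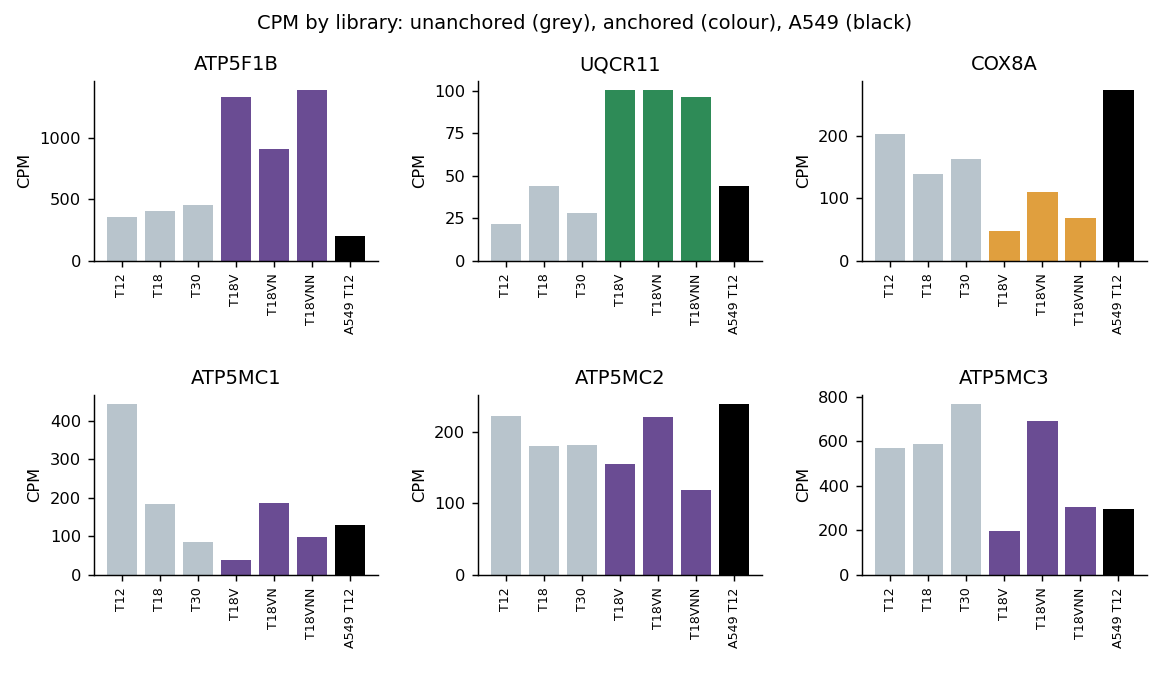
CPM in each library for ATP5F1B, UQCR11, COX8A and the c subunit genes ATP5MC1, ATP5MC2 and ATP5MC3, each on its own axis from 0. ATP5F1B and UQCR11 stood higher in all 3 anchored libraries, COX8A lower, and ATP5MC1 ranged from 445 CPM with T12 to 37.7 CPM with T18V.

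As a share of gene reads, the members (the readthrough left out) took 1.70%, 1.39% and 1.43% with T12, T18 and T30 and 1.77%, 1.74% and 1.76% with T18V, T18VN and T18VNN. The means were 1.51 ± 0.170% and 1.76 ± 0.0171% (SD, n = 3 primers). In the T18 library 1 gene, ZNF557, held 374452 reads, and without the leading gene of each library the T18 share was 1.5%. Complex I took 0.590 ± 0.0789% and 0.596 ± 0.0244%, and complex IV 0.238 ± 0.0405% and 0.273 ± 0.0145%, and in both the classes overlapped. Complex II took 0.0417 ± 0.00636% and 0.0706 ± 0.0161%, complex III 0.226 ± 0.0230% and 0.295 ± 0.0245%, and complex V 0.410 ± 0.0307% and 0.523 ± 0.0197%. In these 3 complexes the anchored libraries all lay above the unanchored ones, in a design of 3 against 3 for which the smallest exact two-sided permutation p is 0.1. Shares without 1 gene are given as a description, since these genes were picked after the values were seen. Without SDHC, which holds most reads of complex II, that complex took 0.0108 ± 0.00525% and 0.0109 ± 0.00278%. Without UQCRB, which binds ubiquinone in complex III, that complex took 0.180 ± 0.0204% and 0.199 ± 0.0286%. Without ATP5F1B, complex V took 0.370 ± 0.0343% and 0.402 ± 0.0178%. The classes overlapped in each of these 3. Without UQCR10, complex III took 0.141 ± 0.0169% and 0.216 ± 0.0172%, with the classes apart. Without NDUFA1, complex I took 0.327 ± 0.0638% and 0.413 ± 0.0440%, which overlapped.

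**Figure D4:**
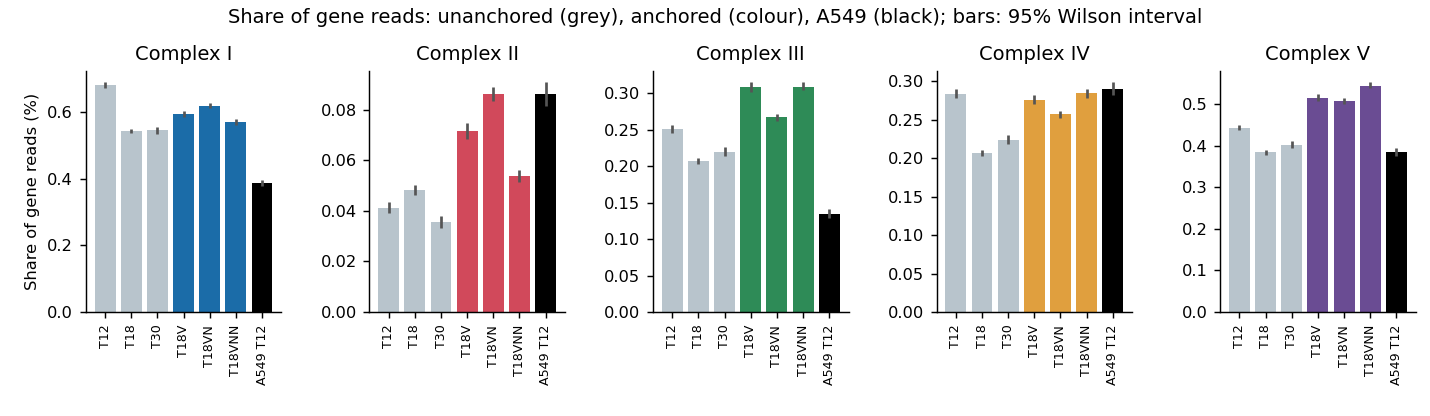
Share of gene reads on the members of each complex in the 7 libraries, with 95% Wilson intervals that cover counting error only; each panel has its own axis from 0. Complexes II, III and V were higher in all anchored libraries, and A549 was lowest for complexes I (0.387%) and III (0.135%).

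Each primer was next set against T12, with a change called at 2-fold on CPM + 1 where the higher library held 20 reads or more. These comparisons share the T12 library. With T18, 9 of 77 members (11.7%) differed by 2-fold, against 29.1% of all genes. With T30 it was 16 of 76 (21.1%, against 36.9%), with T18V 30 of 78 (38.5%, against 40%), with T18VN 16 of 80 (20.0%, against 36.9%) and with T18VNN 23 of 77 (29.9%, against 39.1%). Members had a higher median level in HEK293T than all tested genes (96.5 against 21.8 CPM), and the part of level in these shares was not tested. T18 differed from T12 in 9 members: ATP5MC1, COX5B, COX7A2L, NDUFA9, NDUFS1, NDUFS7, NDUFV1, SDHA and UQCRQ. T18V had the most members past the threshold, 16 higher and 14 lower. Among tested members with reads in every HEK293T library, NDUFA9, an accessory subunit of the matrix arm, had the widest fold range, from 0.919 CPM with T12, which is 3 reads, to 17.8 CPM with T18VN.

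The comparison of A549 with HEK293T, both made with T12, had 1 library on each side, so it has no replicate check and no test. It compares these libraries, and the 6 HEK293T primers give a range against which A549 can be read. Of 74 members that met this minimum of reads, 26 (35.1%) were at least 2-fold lower in A549, against 29.2% of 10145 genes. Another 15 (20.3%) were at least 2-fold higher, against 31% of genes. The median log2 ratio was -0.53 for members and 0.02 for all genes. Outside the range of all HEK293T primers and past 2-fold there were 21 members below (28.4%, against 22.1% of genes) and 12 above (16.2%, against 26.4%). Scaling moved the 2-fold split. TMM-scaled CPM gave 28 members lower and 11 higher (31% and 29.2% of all genes), and library totals gave 30 and 6 (30.3% and 22.2% of all genes).

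In complex I, 16 of 33 compared genes (48.5%) were at least 2-fold lower and 4 (12.1%) were higher, against 29.2% and 31% of all genes, with a median log2 ratio of -0.92. Among the core subunits 4 of 6 were at least 2-fold lower, and 0 were higher. NDUFB8, an accessory subunit of the membrane arm whose protein is often used to follow complex I assembly, had 988 CPM in HEK293T T12 and 98.1 CPM in A549. The other HEK293T libraries had 321.8 to 926 CPM, so A549 lay below all of them, and the fold was 10.1 (exact 95% interval 8.53 to 11.96, counting error only). NDUFA8 was at 61.2 CPM in T12, at 78.1 to 139 CPM with the other primers and at 14.7 CPM in A549, which is 4.17-fold lower than T12; the log2 ratio was -1.99, and -2.70 against the median of the HEK293T libraries. NDUFA1 was 2.01-fold lower than T12, at 1427 CPM, within the HEK293T range since T18VNN had 1260 CPM. NDUFB5 was the highest complex I ratio, with 29.4 CPM in A549, against 8.27 CPM in T12 and 2.14 to 8.48 CPM over the other primers. The share of gene reads on complex I was 0.387% (95% Wilson interval 0.377 to 0.397) in A549, against 0.681% in HEK293T T12 and 0.544% to 0.620% with the other primers.

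In complex II the catalytic SDHA was lower, and SDHB and SDHC were higher. SDHA had 143 CPM in T12, 38.4 to 91.8 CPM with the other HEK293T primers and 34.0 CPM in A549, for a log2 ratio of -2.04. SDHB had 21.7 CPM in T12 and 46.1 CPM in A549, above the 20.6 to 35.3 CPM of the other primers. SDHC had 245.6 CPM in T12 and 771 CPM in A549, a 3.14-fold ratio (exact 95% interval 2.87 to 3.44). With T18VN in HEK293T SDHC had 738.5 CPM, so A549 exceeded the range by little. Against the median of the 6 HEK293T libraries the log2 ratio of SDHC was 0.85, under 2-fold, and that of SDHA was -1.11. SDHD had too few reads to be compared (9 in T12 and 16 in A549).

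UQCR10, a small subunit of complex III, had the lowest ratio of all members. It had 913, 786, 847, 951, 671 and 756 CPM with T12, T18, T30, T18V, T18VN and T18VNN, and 80.8 CPM in A549, which rested on 121 reads. The HEK293T libraries lay within 1.42-fold of each other, and A549 was 11.3-fold below T12 (exact 95% interval 9.42 to 13.7). The gene lies on chromosome 22 (30163358 to 30166402, plus strand, hg19). UQCRFS1, the Rieske iron-sulfur protein, was 2.32-fold higher than T12, at 327 CPM. The share of gene reads on complex III was 0.135% in A549 and 0.251% in T12. Without UQCR10 it was 0.127% and 0.160%, and the lowest HEK293T library had 0.128%.

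In complex IV, 4 of 10 compared genes (40.0%) were at least 2-fold higher in A549 and 2 (20.0%) were lower, against 31% and 29.2% of all genes, with a median log2 ratio of 0.30. COX6B1, the subunit at the dimer interface, had 115 CPM in T12, 70.1 to 142 CPM with the other primers and 507 CPM in A549, a 4.41-fold ratio (exact 95% interval 3.89 to 5.00). COX7B was at 29.7 CPM in T12, at 31.9 to 78.6 CPM with the other primers and at 120 CPM in A549, and its log2 ratio of 1.98 was 1.06 against the median of the 6 HEK293T libraries. COX6C was at 119 CPM in T12, at 78.5 to 196 CPM with the other primers and at 446 CPM in A549. COX7A2L was the other gene above 2-fold, at 207 CPM against 96.5 CPM. COX4I1, which binds the regulatory adenine nucleotides, was lower, at 38.0 CPM against 138 CPM, and COX7C was at 424.5 CPM against 995.5 CPM. The share of gene reads on complex IV was 0.290% in A549 and 0.284% in T12, close to each other.

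In complex V, 5 of 19 compared genes (26.3%) were at least 2-fold lower and 4 (21.1%) were higher, both under the shares of all genes, with a median log2 ratio of -0.02. ATP5PO, the stalk subunit that confers oligomycin sensitivity, had 267 CPM in T12, 198 to 298.5 CPM with the other primers and 68.7 CPM in A549, 3.89-fold lower than T12. ATP5IF1 was at 263 CPM in T12 and at 83.4 CPM in A549, below the 107 to 327 CPM of the other primers. ATP5MC1 had 129.5 CPM in A549, within the range of the HEK293T primers. ATP5F1B, the gene called between the primer classes, had 198 CPM in A549, which was below all HEK293T libraries and 1.78-fold below T12. ATP5F1A and ATP5F1E, also of the F1 head, were higher, at 163.5 and 189 CPM against 70.4 and 64.9 CPM. For ATP5F1A this lay within the HEK293T range, where T18VNN had 180.2 CPM, and for ATP5F1E it lay above.

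**Figure D5:**
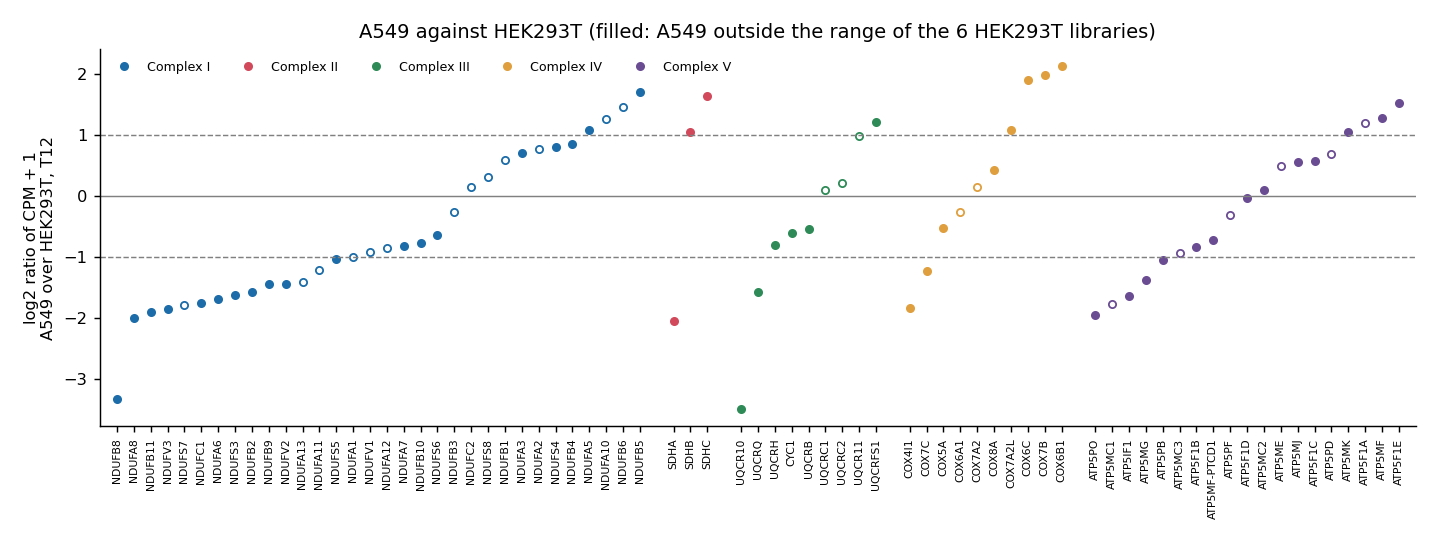
The log2 ratio of CPM + 1, A549 over HEK293T with T12, for the compared members reported here, ordered within each complex; filled points have an A549 level outside the range of the 6 HEK293T libraries, and dashed lines mark 2-fold. UQCR10 (-3.48) and NDUFB8 (-3.32) were lowest, and COX6B1 (2.13), COX7B (1.98) and COX6C (1.90) were highest.

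Short transcripts were checked beside these ratios because members are short. Over the 417 compared coding genes under 1000 nt the median log2 ratio was -0.16, and over the 41 members among them it was -0.52. At least 2-fold lower were 30.0% of those genes and 36.6% of those members. The part of transcript length in the result was not tested.

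Lists of related genes gave the setting of these values, and their counts in A549 are to be read against the 29.2% of all genes that were at least 2-fold lower and the 31% that were higher. Of 45 tested assembly factors, which build the complexes, 0 were called by edgeR between anchored and unanchored primers (4 at an unadjusted p under 0.05, and 2 by DESeq2, NDUFAF6 and UQCC1). In A549 15 of 39 were at least 2-fold lower and 5 were higher, with a median log2 ratio of -0.34. NDUFAF3, an assembly factor of complex I, had 73.5 CPM in HEK293T T12 (240 reads) and 2.00 CPM in A549 (3 reads). It overlaps DALRD3 and MIR191, so reads may be shared. COX20, a chaperone of complex IV, had the highest ratio (log2 2.17). Of 12 tricarboxylic acid cycle genes, 0 were called by edgeR (0 at an unadjusted p under 0.05 and 0 by DESeq2). In A549 3 of the 12 were at least 2-fold higher and 1 was lower, with a median log2 ratio of -0.44. SUCLG2, a subunit of succinyl-CoA ligase, had the highest ratio (log2 1.5). Of 13 regulators of mitochondrial biogenesis, 0 were called by edgeR (4 at an unadjusted p under 0.05, and ESRRA by DESeq2), and in A549 5 were lower and 1, PPARGC1A, higher. TFB1M, a mitochondrial transcription factor, was lowest (log2 -2.28). Of 19 tested carriers and relatives of the subunits, 0 were called by edgeR (4 at an unadjusted p under 0.05, and COQ2 and VDAC1 by DESeq2). Of the 16 compared in A549, 6 were at least 2-fold lower and 1, COQ9 of ubiquinone synthesis, was higher. COQ3, of the same pathway, had 23.3 CPM in T12 (76 reads) and 0 reads in A549.

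Of 17 glycolytic genes, 8 were at least 2-fold higher in A549 and 2 were lower, with a median log2 ratio of 0.41. ENO2, a neuronal enolase, had the highest ratio (log2 3.11), at 3.37 CPM in T12 (11 reads) and 36.7 CPM in A549 (55 reads). LDHA, lactate dehydrogenase A, was at 658 CPM in A549 against 231 CPM in T12. HK2, hexokinase 2, had 32.1 CPM in T12 (105 reads) and 2.00 CPM in A549 (3 reads). In the anchored contrast 1 glycolytic gene was called: ALDOA, aldolase A, had 644, 983.5 and 570 CPM without and 2604, 1809 and 2919 CPM with an anchor (log2 fold change 1.57, SE 0.31, edgeR adjusted p = 0.0387). The difference between the lists was not tested.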

How the data were processed

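The authors deposited, for each library, read counts per RefSeq transcript, with FPM, a signal per library total, and FPKM, deposited values that also divide by transcript length. Per the submitters' processing notes, FastQC 0.11.8, cutadapt 2.10, Trimmomatic 0.39, HISAT2 2.2.1 and SAMtools were used with GRCh37/hg19; the counter, its strand setting and its treatment of multiply aligned reads are not given in the sources used here. FPM served to recover library totals (7491993 to 25578543 reads), and coordinates of genes are the deposited ones.

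Of 61177 transcript entries, 60133 matched a symbol in the RefSeq GRCh38.p14 table (used for names and promoters); the entry with most reads stood for each gene, and 177 entries belonged to members. Transcript ends came from GENCODE release 29. A read can count for overlapping genes. CPM used gene reads. Intervals (95%, Wilson or exact) and the floor of 3 reads cover counting error only, because the reads carry no molecular identifiers and may repeat molecules.

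Anchored and unanchored HEK293T libraries were compared over all genes with edgeR 4.0.16 in R 4.3.3 (filterByExpr, TMM, quasi-likelihood F-test, Benjamini-Hochberg adjustment at 0.05), tested on simulated data first; DESeq2 1.42.0, other scalings and filters, summed entries and leaving out each library were alternatives. A549 was compared with HEK293T T12 at 2-fold on log2(CPM + 1), where the higher library held 20 reads or more. Samples were grouped by their titles. Primers stand in for replicates, so p-values measure the spread between these libraries, which may be technical. Gene body coverage and poly(T) length files, and the 2 libraries with only the latter, were not used.

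Members and lists were chosen with earlier results of these data known. Members named were those called, the 3 highest and 3 lowest fold changes, the 2 highest and the lowest FPKM of each complex, the 5 highest and 5 lowest A549 ratios, tissue paralogs, complex II, and members under 3 reads in every library; in the other lists, genes called and the highest and lowest A549 ratio. Other genes were named after their values were seen. Some genes that these rules or the figures would take in are not reported here, though counts over all members include them.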

Additional observations from a re-analysis of the deposited data

Results flagged for a closer look

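For the tested members named by rule, and for the share of gene reads of each complex and of all members, the highest and the lowest of the 6 HEK293T libraries were checked for a gap to the others that was large for the range (Dixon's criterion at 95%). Of 41 values checked, 5 stood apart. Chance gives about 1 in 20, or 2.05, for genes chosen without regard to these values. Some genes, UQCRHL and ATP5MC1 among them, were named for extreme values in these same libraries, so the 5 cannot be set against 2.05. ATP5MC1 was at 445.2 CPM with T12, and the other 5 primers gave 37.7 to 185.5 CPM. COX6C was at 196.2 CPM with T18VN, against 78.5 to 119 CPM with the others. CYC1 was at 25.9 CPM with T18VN, against 7.51 to 11.6 CPM. NDUFB5 was lowest with T18V at 2.14 CPM, against 6.54 to 8.48 CPM. UQCRHL was at 22.4 CPM with T18V, against 0 to 7.14 CPM. Of the 5 values, 2 were in T18V, 2 in T18VN and 1 in T12.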

How the results depend on the processing

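No paired analysis was possible because HEK293T T12 has gene counts only for replicate 1 and A549 T12 only for replicate 2, so the groups share no replicate number. The count of 1 member called between primer classes became 3 with DESeq2, 3 with no filter on low counts, 2 with no TMM and 0 with reads summed over entries, and it ran from 0 to 1 when each library was left out in turn. The members' median log2 fold change of 0.20 became 0.16 with RLE size factors, 0.37 with no TMM, 0.23 with no filter and 0.17 with summed entries, and ran from 0.13 to 0.25 with a library left out; the median of all genes was 0.00, and -0.04 with RLE size factors and 0.17 with no TMM. The 25 members whose classes did not overlap became 50 with library totals and 30 to 39 with a library left out, where fewer libraries have to separate. For A549, the 41 members at least 2-fold apart became 27, and the 33 outside the HEK293T range 21, among genes that overlap no other gene, which leaves 52 members; at 3-fold there were 19, 6.76% of members higher and 18.9% lower (22.6% and 19.5% of all genes). The A549 share of gene reads minus that of T12 was -0.42 percentage points, and -0.12 points with library totals, where the shares themselves are smaller (0.173% and 0.294%). Of the other settings tried for these results, 36 kept the direction and the side of the threshold, or stayed within 1.5 times or 1 SD. For medians this SD was 0.23 for A549 and 0.01 for the anchored contrast. Among the 36, the members' A549 median log2 ratio of -0.53 became -0.69 with library totals and -0.30 with a minimum of 10 reads. Over all genes it was 0.02, and -0.26 and 0.10 in these settings. No result changed direction. The cause of these shifts was not tested, beyond the fewer genes or libraries named. Members near the floor of 3 reads, such as SDHD, NDUFB7 and UQCRHL, are limited by depth.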
